A study of Mus musculus with 40 samples.

Results

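Glutathione S-transferase transcripts were followed in the brains of mice that had received the fecal microbiota of donors before or during a ketogenic diet (KD). The set comprised 10 genes, Gstt1, Gstt2, Gstt3, Gstm1, Gstm5, Gstm7, Gstp1, Gsta4, Gsto1 and Mgst3, picked by symbol out of the 47643 Ensembl genes of each deposited table. They were chosen with earlier results of these data known. All 10 had counts in both regions, and all 10 reached the minimum for testing, a sum of 10 counts across the libraries entering a fit.

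Glutathione S-transferases couple the tripeptide glutathione to electrophiles, such as the aldehydes left by lipid peroxidation, so that the product can be exported from the cell and broken down. The soluble enzymes fall into classes named by Greek letters, here theta (Gstt), mu (Gstm), pi (Gstp), alpha (Gsta) and omega (Gsto), while Mgst3 belongs to a separate family of membrane proteins with glutathione transferase and peroxidase activity. In brain, mu-class enzymes are abundant in astrocytes and a pi-class enzyme is commonly used to mark oligodendrocytes. Many of these genes carry antioxidant response elements, which bind the transcription factor Nrf2.

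RNA was sequenced from hippocampus and frontal cortex of germ-free wild-type Swiss Webster mice. Per the study's methods these were females of 6 to 8 weeks on a control diet. They were colonized by gavage with stool suspended from 10 donors, whom the study describes as children with refractory epilepsy. The stool was taken either before the diet (pre-KD) or about a month into it (post-KD). Tissue was taken on day 4, and each library stood for 1 recipient cohort of 6 mice, so that the 40 libraries made up 4 groups of 10, with the same 10 donors in each group and replicates numbered by donor. The mice themselves ate no ketogenic diet. A library is a pool, so spread between libraries is not spread between animals. It joins differences between donors' cohorts with those of preparing and counting single libraries. Levels are given as CPM, a gene's count as a share of its library's total on the usual scale, after TMM scaling over all 40 libraries, and fold changes come from a fit of each region.

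Library totals ran from 1140756 to 1947416 counts in hippocampus and from 1188447 to 2095352 in frontal cortex, of which at least 8.63% fell on a single gene, Gm42418. At these depths a library with no count allows up to 1.43 to 2.63 CPM, a limit that covers counting error only. The 4 hippocampal markers summed to between 710 and 1216 CPM in hippocampus and to between 406 and 736 CPM in frontal cortex. Choroid plexus markers were high in hippocampus, with a median of 1470 CPM against 113 CPM, and markers of striatum were high in the libraries labelled frontal cortex, with a median of 820 CPM against 106 CPM. The 4 Y-linked genes examined summed to between 0 and 179 CPM over the libraries, whereas the methods name females, and a fit with these genes as a covariate is given where it changes a call.

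**Figure D1:**
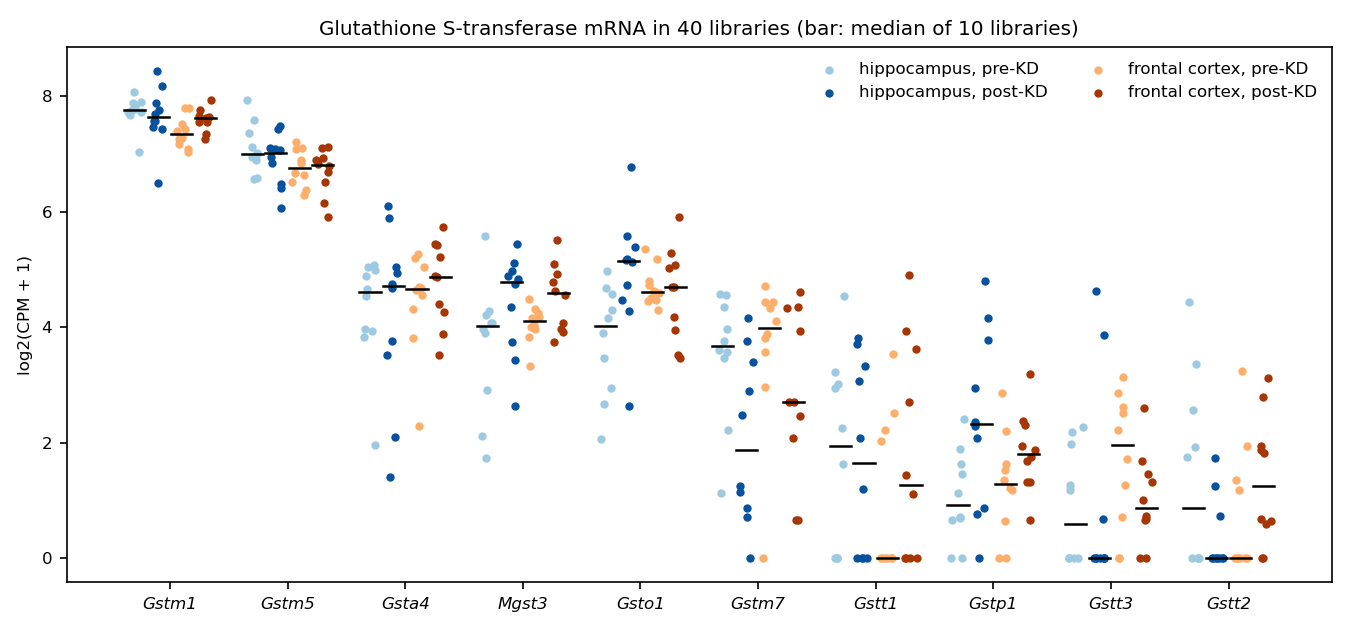
Level of each gene in 40 libraries, as log2(CPM + 1), with genes ordered by hippocampal level per kb and 10 libraries in each of 4 groups (bar, median). The medians of Gstm1 and Gstm5 lie above those of the other 8 genes in every group, and Gstt1, Gstt2 and Gstt3 have 18, 20 and 16 libraries at 0.

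The 2 mu-class genes Gstm1 and Gstm5 supplied most of the glutathione S-transferase mRNA. Together they held 77.2% of the 26546 counts of the 10 genes, 79.0% in hippocampus and 75.3% in frontal cortex. Gstm1 (chr3:108012255-108017973, minus strand, GRCm38) averaged 213 ± 53.5 CPM (SD, n = 20) in hippocampus and 181 ± 31.5 CPM (SD, n = 20) in frontal cortex, and it was counted in all 40 libraries. Gstm5 (chr3:107895821-107898686, plus strand), a mu-class gene of the same cluster, averaged 133 ± 41.7 CPM (SD, n = 20) and 108 ± 24.6 CPM (SD, n = 20). Of the 69-base windows in the Gstm1 transcripts, 13.1% also occurred in other genes, chiefly the pseudogene Gstm2-ps1, and 7.94% of those of Gstm5 lay in the overlapping gene 4933431E20Rik, so part of these 2 levels is uncertain.

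A middle tier was made up of Gsta4, Mgst3 and Gsto1. Gsta4 (chr9:78182774-78209349, plus strand), an alpha-class enzyme that conjugates lipid peroxidation aldehydes, averaged 24.1 ± 16.9 CPM (SD, n = 20) in hippocampus and 26.5 ± 12.2 CPM (SD, n = 20) in frontal cortex. Mgst3 (chr1:167371966-167393841, minus strand) averaged 19.5 ± 12.5 and 19.8 ± 8.34 CPM in the 2 regions. Gsto1 (chr19:47854970-47864790, plus strand), whose product reduces dehydroascorbate and removes glutathione from proteins, averaged 26.2 ± 23.2 and 26.0 ± 11.3 CPM. None of these 3 genes had a library without a count, and none shares a 69-base window with another gene. Gstm7 (chr3:107926334-107931817, minus strand), a lesser mu-class gene, followed with 9.13 ± 7.46 and 12.1 ± 8.25 CPM and was missing from 2 of 40 libraries.

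The theta-class genes and Gstp1 were sparse. Gstt1 (chr10:75783813-75798584, minus strand), which acts on small halogenated compounds, gathered 297 counts over 40 libraries and was at 0 in 18 of them. Its neighbours Gstt3 (chr10:75774115-75781414, minus strand) and Gstt2 (chr10:75831114-75837424, minus strand) gathered 153 and 127 counts and were at 0 in 16 and 20 libraries. Gstp1 (chr19:4035407-4037985, minus strand) gathered 216 counts with 5 libraries at 0, but 30.2% of its 69-base windows occur in Gstp2 as well, so the split of reads between these 2 genes is uncertain. Of the Gstt3 windows, 11.7% lie in the overlapping readthrough gene Gm20441.

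Set against the abundant members, Gstt2 had the lowest mean of the 10 genes over the 20 libraries of either region, whether or not levels were divided by exon length. Per kb of annotated exon, Gstt2 stood at 0.53 ± 1.18 CPM per kb (SD, n = 20) in hippocampus and 0.45 ± 0.63 CPM per kb (SD, n = 20) in frontal cortex. Gstm1 stood at 145 ± 36.3 and 123 ± 21.4 CPM per kb, or 271 and 274 times the level of Gstt2, and Gstm5 stood at 104 ± 32.6 and 84.4 ± 19.2 CPM per kb. These ratios pool the diets. By group Gstm1 stood at 152 times Gstt2 in pre-KD and 1365 times in post-KD hippocampus, and at 336 and 236 times in frontal cortex. The 1365 rests on 7 Gstt2 counts, 4 of them in replicate 4. The 336 rests on 19 counts, 9 of them in replicate 8, so neither ratio is stable. Without the pre-KD library of replicate 7, which held the most Gstt2 counts, the pooled hippocampal ratio was 493, an omission chosen after the data were seen. The order was the same in both regions: Gstm1, Gstm5, Gsta4, Mgst3, Gsto1, Gstm7, Gstt1, Gstp1, Gstt3 and Gstt2. Only the steps from Gstm1 to Gstm5 and from Gstm5 to Gsta4 exceeded the larger SD of the 2 neighbours, and no other neighbours in the order differed beyond their spread. Whether division by length is right depends on the library kit, which the study's sources give in 2 ways, but without it only Gsta4, Mgst3 and Gsto1 changed places. The last place was not held in every group: in pre-KD hippocampus Gstt2, at 0.96 CPM per kb, stood above Gstp1 (0.90) and Gstt3 (0.34), and in post-KD frontal cortex, at 0.56, above Gstt3 (0.35).

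The spread of raw counts among the 10 libraries of a group, which includes differences in library total, was set beside that of other genes. The variance of counts over their mean, which is 1 for counting error alone, ran from 8.34 for Gstm7 to 23.9 for Gstm1. Genes whose mean count was close to that of Gstt2 had a median ratio of 11.5, beside 10.3 for Gstt2 itself, and for Gsto1 the pair of values was 13.8 and 13.9. The ratios of Gstm7 and Mgst3 lay above those of 6.97% and 7.19% of the genes of like mean, and those of Gstt1 and Gstm5 above 84.7% and 72.0%.

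**Figure D2:**
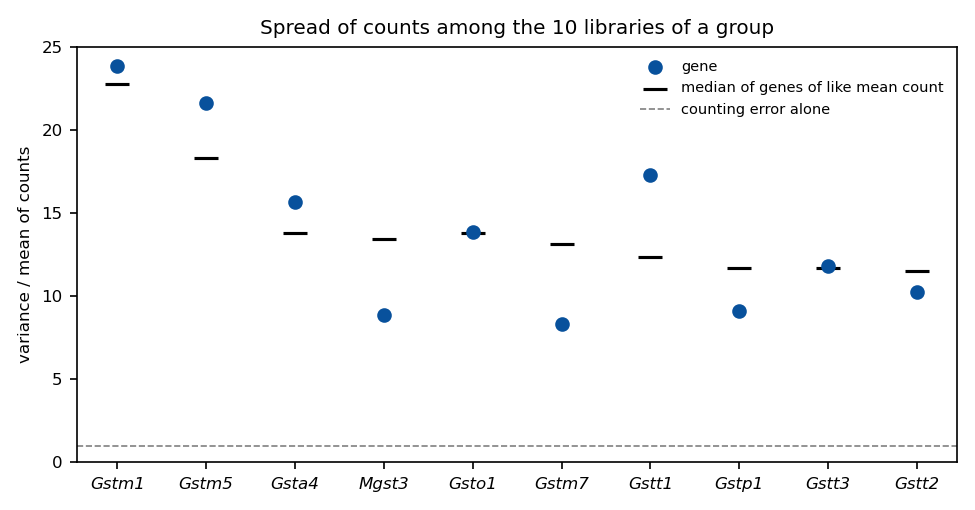
Variance over mean of raw counts within groups of 10 libraries, averaged over the 4 groups, for each gene (points), beside the median of genes of like mean count (bars); the dashed line at 1 is counting error alone. The points lie between 8.34 and 23.9, all above the line.

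The question put to the hippocampus was whether recipients of post-KD microbiota differed from recipients of pre-KD microbiota. Gsto1 rose and Gstt2 fell at the study's own threshold of an unadjusted p under 0.05 (edgeR's quasi-likelihood test, 10 against 10 libraries), so that 1 of 10 genes was called higher and 1 lower, where 4.57% of all 17529 genes tested were called higher and 5.48% lower. In either direction 10.1% of genes were called, so 2 of 10 members is a count to be read against about 1 in 10. DESeq2 called 3 of 10, Gsto1, Gstp1 and Gstt2 (p = 0.0458), where it called 2.71% of 20964 genes without the minimum on counts. Since the members were chosen with earlier results of these data known, neither share is a test of the set. After Benjamini-Hochberg adjustment over all genes none of the 10 was called by edgeR or by DESeq2, and the share of all genes called was 0.0057%. Of the 10 genes 5 had a fold change above 0 and 5 below, with a median log2 fold change of 0.13 beside -0.01 over all genes.

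Gsto1 ranged from 3.18 CPM through a median of 15.4 to 30.5 CPM in the 10 pre-KD libraries. In the 10 post-KD libraries it ranged from 5.24 CPM through a median of 34.4 to 109 CPM. The groups overlapped, but Gsto1 was higher in the post-KD library for 9 of 10 donors. Its log2 fold change was 1.27 ± 0.49 (SE), or 2.41-fold higher, with p = 0.0112 and an adjusted p of 0.168 by edgeR. The highest library, the post-KD cohort of replicate 3, stood well above the next at 46.8 CPM, and without both libraries of replicate 3 the log2 fold change was 1.09 with p = 0.067, while the other 9 omissions kept p under 0.05. With donor as a replicate block p was 0.0382, so that call held.

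**Figure D3:**
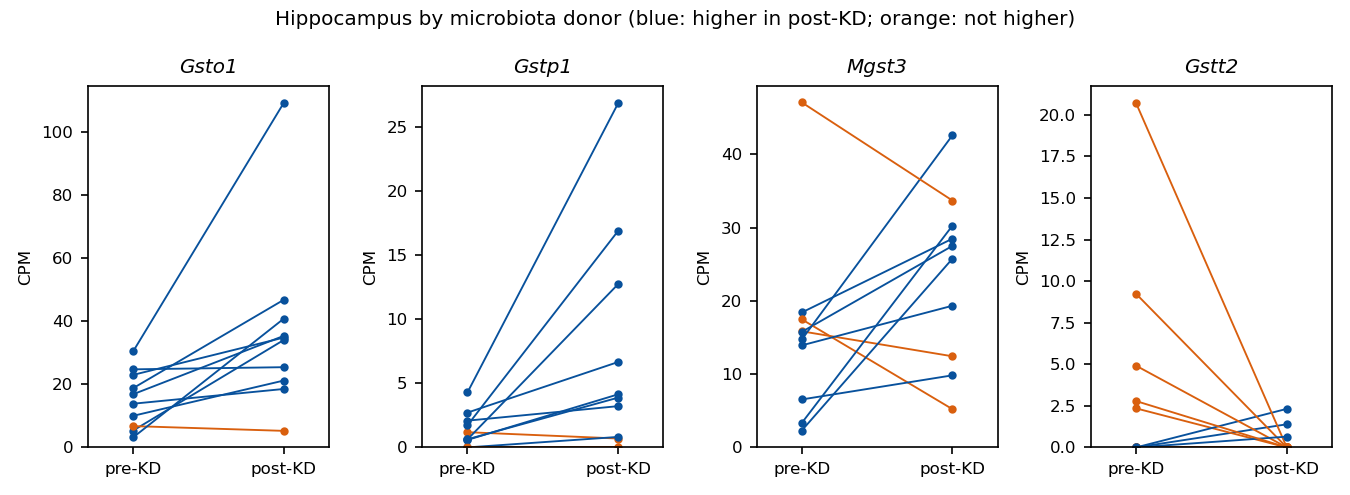
CPM of 4 genes in hippocampus, with a line for each of 10 donors from its pre-KD to its post-KD library (blue, higher in post-KD; orange, not higher). Gsto1 was higher for 9 donors and Gstp1 for 8, while each of the 5 donors with Gstt2 counts in pre-KD had none in post-KD.

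Gstt2 was counted in 5 of 10 pre-KD libraries, with 63 counts in all (Poisson 95% interval 48.4 to 80.6). Over the 10 post-KD libraries it had 7 counts (2.81 to 14.4), in 3 libraries. Both intervals cover counting error only. They leave out the spread between libraries, where the variance of Gstt2 counts over their mean was 10.3. The 3 post-KD libraries with a count belonged to donors whose pre-KD library had none, and the 5 donors with pre-KD counts had none in post-KD, so no donor had Gstt2 reads in both hippocampal pools. Replicates 6 and 7 alone held 16 and 31 of the 63 pre-KD counts. The log2 fold change was -2.97 ± 1.49 (SE), with p = 0.0482 and an adjusted p of 0.487 by edgeR.

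That call did not outlast small changes to the fit. Without both libraries of replicate 7 the log2 fold change of Gstt2 was -1.96 with p = 0.209, and over all 10 such omissions p ran from 0.0186 to 0.209, under 0.05 in 3 of 10, so that leaving out replicate 2, 3, 5, 6, 7, 8 or 10 ended the call. With donor as a replicate block the fold change was -2.51 with p = 0.301, and with Y-linked genes as a covariate p was 0.061. The direction was the same in each of these fits.

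Gstp1, the pi-class enzyme, had 23 counts in pre-KD hippocampus and 112 in post-KD hippocampus. It lay between 0 and 4.3 CPM in pre-KD and between 0 and 26.9 CPM in post-KD, with medians of 0.91 and 4.02 CPM. The post-KD library was higher for 8 donors, lower for 1 and equal for 1. The log2 fold change of 2.37 ± 1.22 (SE) did not pass by edgeR (p = 0.0538, adjusted p = 0.518), passed unadjusted by DESeq2 (p = 0.00531, adjusted p = 0.998), and was 2.09 with p = 0.167 under the replicate block. Leaving out replicate 7 brought p to 0.0476 by edgeR, and the other omissions kept it over 0.05.

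Gstm7 had 209 counts in pre-KD and 75 in post-KD libraries. It ranged from 1.17 to 22.7 CPM with a median of 11.8 in pre-KD, and from 0 to 16.9 CPM with a median of 2.99 in post-KD. It was lower in post-KD for 9 of 10 donors, yet the log2 fold change of -1.26 ± 0.90 (SE) had p = 0.165. Mgst3 had a log2 fold change of 0.58 ± 0.58 (SE, p = 0.315), with medians of 15.3 and 26.6 CPM, and was higher for 7 of 10 donors.

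The abundant genes gave the narrowest intervals of the 10. The log2 fold change of Gstm1 was -0.04 ± 0.17 (SE), with a 95% interval from -0.38 to 0.30, and its medians were 217 and 198 CPM. For Gstm5 the change was -0.22 ± 0.20 (SE), with an interval from -0.61 to 0.18, and the medians were 127 and 128 CPM. For Gsta4 the change was 0.30 with an interval from -0.72 to 1.31. The sparse Gstt1 and Gstt3 could not be placed, since their intervals ran from -2.44 to 2.19 and from -1.29 to 4.23.

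In pooled tissue, fewer cells of a type and less RNA per cell cannot be told apart. Among the fixed marker lists, 1 of 7 oligodendrocyte markers was called higher in post-KD hippocampus (Mog, log2 fold change 0.90, p = 0.041), 1 of 4 hippocampal markers lower (Prox1, -0.57, p = 0.0256) and 1 of 5 tested striatal markers lower (Ppp1r1b, -0.64, p = 0.0322), beside 10.1% of all genes. The named markers did not stand for their lists in the first 2 cases: 3 oligodendrocyte markers had a fold change above 0 and 4 below (median -0.10), and 2 hippocampal markers were above 0 and 2 below (median 0.29), while all 5 striatal markers were below 0 (median -0.60). The summed oligodendrocyte markers ran from 2104 to 3743 CPM in pre-KD and from 1868 to 3619 CPM in post-KD libraries, the hippocampal markers from 710 to 1216 and from 726 to 1023 CPM, and the striatal markers from 72.8 to 273 and from 33.0 to 209 CPM, with Drd2 at 0 in both groups. No marker of the astrocyte, neuron, microglia, endothelium, choroid plexus, meninges or blood lists was called there by edgeR at an unadjusted p under 0.05. The part of cell make-up in the Gsto1 and Gstt2 values was not tested.

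The promoters of Gsto1, the gene called higher in hippocampus, of Gstp1, called there by DESeq2 but not by edgeR over all 10 donors, and of the abundant Gstm5 are shown for the letters of known response elements. RefSeq (GRCm38.p6) promoter sequence was at hand for 8 of the 10 genes, all but Gstt2 and Gsta4, and the 250 bases before the transcript start were searched on both strands for TGACNNNGC (the core of the antioxidant response element), TGACTCA (the AP-1 site), GCGTG (the core of the xenobiotic response element), GGGCGG (the GC box) and TATAAA (the TATA box). The sequences run 5′ to 3′ on the strand of the gene, and capitals mark every match.
Gsto1, chr19:47854723-47854972, plus strand: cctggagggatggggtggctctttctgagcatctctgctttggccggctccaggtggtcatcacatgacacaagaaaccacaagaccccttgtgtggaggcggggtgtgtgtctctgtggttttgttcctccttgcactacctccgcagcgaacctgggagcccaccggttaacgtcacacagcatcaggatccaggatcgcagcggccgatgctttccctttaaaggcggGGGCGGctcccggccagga
Gstp1, chr19:4037913-4038162, minus strand: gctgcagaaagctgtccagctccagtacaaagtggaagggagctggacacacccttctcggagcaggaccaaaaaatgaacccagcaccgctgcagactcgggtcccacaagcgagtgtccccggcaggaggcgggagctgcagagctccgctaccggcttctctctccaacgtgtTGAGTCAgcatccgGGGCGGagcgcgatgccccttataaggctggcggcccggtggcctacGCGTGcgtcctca
Gstm5, chr3:107895604-107895853, plus strand: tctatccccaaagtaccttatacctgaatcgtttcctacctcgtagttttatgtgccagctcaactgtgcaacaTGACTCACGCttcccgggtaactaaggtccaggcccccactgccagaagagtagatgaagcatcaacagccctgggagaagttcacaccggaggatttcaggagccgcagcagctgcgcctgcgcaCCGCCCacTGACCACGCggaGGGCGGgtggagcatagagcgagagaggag

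Of the 11 windows of these 8 genes, the 1 of Gstt1 and the 2 of Gstt3 held no match. The windows of Gstm1 held 1 and 2, those of Gstm7 1 and 2, and that of Mgst3 3. Windows of the same gene overlap, and the xenobiotic element core in both Gstm1 windows is 1 site. Neither window of Gstm1, the most abundant member, held the antioxidant element core or the AP-1 site, and 1 window of Gstm7 held the former. The Gsto1 window held 1 match, a GC box 19 bases before the start. The Gstp1 window held 3, an AP-1 site beginning 74 bases, a GC box 60 bases and a xenobiotic element core 13 bases before the start. The Gstm5 window held 6, among them an AP-1 site whose last letters overlap a xenobiotic element core, and an antioxidant element core 42 bases before the start that overlaps a second xenobiotic element core. Of 32851 mouse promoter windows of that length, 10.2% held the antioxidant element core, 4.46% the AP-1 site, 28.2% the xenobiotic element core, 32.7% the GC box and 12.4% the TATA box. These matches describe the letters of the windows and no binding was measured.

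In frontal cortex, the same question gave no called member. None of the 10 genes had an unadjusted p under 0.05 by edgeR, where 9.68% of 17873 genes did, and none passed after adjustment, where 0.0056% did; DESeq2 called 1, Mgst3, where it called 3.48% of all genes. Of the 10 fold changes 7 were above 0, with a median of 0.25 beside 0.01 over all genes.

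Mgst3 lay between 9.09 and 21.5 CPM with a median of 16.2 in pre-KD frontal cortex. In post-KD it lay between 12.5 and 44.5 CPM with a median of 23.2, higher for 7 of 10 donors. The log2 fold change was 0.56 ± 0.38 (SE, p = 0.148 by edgeR), and DESeq2 gave 0.57 with p = 0.0484 and an adjusted p of 0.994. Gsto1 had medians of 23.5 and 24.9 CPM, was higher for 5 of 10 donors, and had a log2 fold change of 0.03 ± 0.34 (SE) and an interval from -0.64 to 0.69. Gstm1 had medians of 162 and 196 CPM and a change of 0.20 ± 0.13 (SE, p = 0.131), higher for 7 of 10 donors, and Gstm5 had a change of -0.06 ± 0.16 (SE) with an interval from -0.38 to 0.26.

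Gstt2 had 19 counts in 4 of 10 pre-KD and 38 counts in 8 of 10 post-KD frontal cortical libraries. The log2 fold change was 0.72 ± 1.24 (SE, p = 0.565), and the post-KD library was higher for 7 donors and lower for 2. Gstp1 had 29 and 52 counts and a change of 0.67 ± 1.06 (SE, p = 0.53). Gstm7 was lower in post-KD for 8 of 10 donors, with medians of 14.99 and 5.51 CPM and a change of -0.62 ± 0.59 (SE, p = 0.299). For Gstt1, Gstt3 and Gsta4 the p-values by edgeR were 0.159, 0.281 and 0.403. In these libraries 2 of 4 tested blood markers (Hba-a1, log2 fold change 0.49, and Hbb-bs, 0.41) were called higher in post-KD at an unadjusted p under 0.05. The other 2 blood markers had fold changes below 0. Of 5 tested striatal markers 2, Penk (0.28) among them, were called higher, with 4 fold changes above 0, 1 below and a median of 0.10. Over all genes 9.68% were called in either direction.

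**Figure D4:**
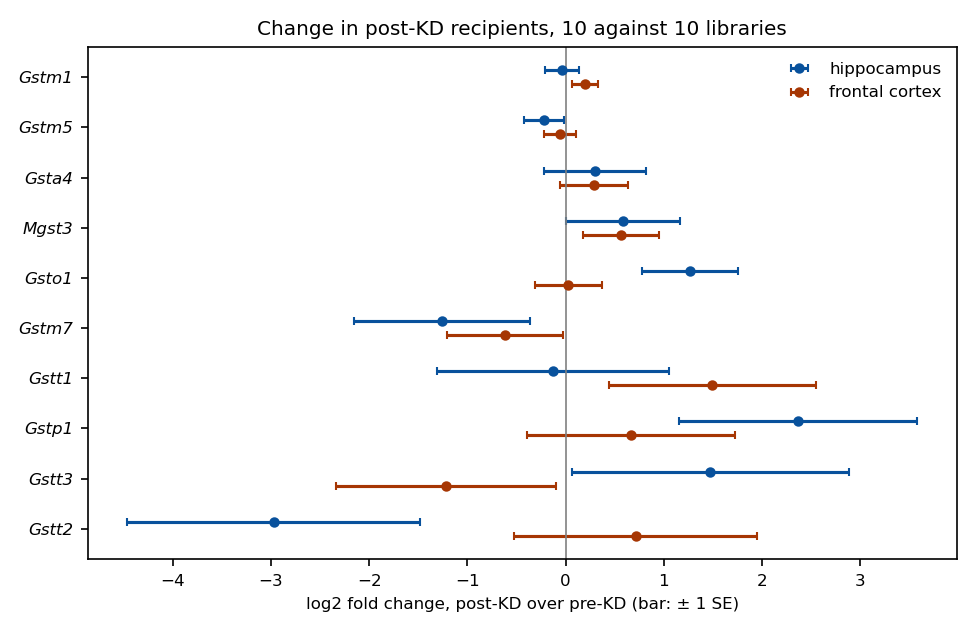
Log2 fold change of post-KD over pre-KD recipients with ± 1 SE from edgeR, for 10 genes in hippocampus (blue) and frontal cortex (brown), 10 against 10 libraries each. Gsto1 in hippocampus stands at 1.27 and in frontal cortex at 0.03, and Gstt2 at -2.97 and 0.72, while Gstm1 and Gstm5 stay within 0.22 of 0.

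Whether the post-KD change differed between the regions was tested with the recipient cohort as a block. No member passed at an unadjusted p under 0.05 by edgeR, where 2.22% of 19422 genes did, and none after adjustment, where 0.0154% did. The change of Gsto1 was larger in hippocampus by 1.29 ± 0.70 on the log2 scale (SE, p = 0.0658, adjusted p = 1.0), and DESeq2, which called this 1 member and 4.07% of all genes, gave 1.29 with p = 0.0139 and an adjusted p of 0.976. Leaving out replicate 4 brought p to 0.0461 by edgeR. For Gstt2 the difference was -3.86 ± 2.74 (SE, p = 0.159). For Gstm1, Gstm5, Gstm7, Gsta4, Mgst3, Gstp1, Gstt1 and Gstt3 p ran from 0.199 to 0.88. Without the block both passed by edgeR, Gsto1 with p = 0.0354 and Gstt2 with p = 0.0452. The hippocampal call of Gsto1 is therefore not shown to be particular to that region. In the same test 4 of 5 striatal, 2 of 4 blood and 1 of 4 endothelial markers tested had a lower post-KD fold change in hippocampus than in frontal cortex at an unadjusted p under 0.05, the other 2 blood markers had a higher one, and their part in the Gsto1 difference was not tested.

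Between the regions of the same cohorts, levels of the 10 genes did not part at the threshold. None of the 10 passed an unadjusted p under 0.05 by edgeR with cohort as a block, where 10.9% of 19422 genes did, and none after adjustment, where 2.85% did. Over all genes the median log2 ratio of hippocampus to frontal cortex was -0.17, beside -0.26 over the 10. Nearest were the 2 abundant genes: Gstm5 was higher in hippocampus by 0.27 ± 0.14 on the log2 scale (SE, p = 0.0539) in 13 of 20 cohorts, and Gstm1 by 0.21 ± 0.11 (SE, p = 0.0579) in 15 of 20 cohorts. Both passed unadjusted by DESeq2 (p = 0.0144 and 0.0179), which called 11.4% of all genes, and by edgeR with RLE scaling (p = 0.0291 and 0.027), and neither after adjustment by DESeq2 (0.12 and 0.137). Astrocyte markers, as the list of a cell type rich in mu-class enzymes, summed to between 2532 and 3199 CPM in hippocampus. In frontal cortex they summed to between 2489 and 3286 CPM. Of 8, 1 was called higher in hippocampus (Aqp4), with 5 ratios above 0 and 3 below. Called higher were also 3 of 6 choroid plexus and 2 of 5 meningeal markers. Called lower were 3 of 6 neuron, 2 of 4 endothelial, 3 of 4 tested blood, 1 of 5 microglial and 5 of 5 tested striatal markers. Of 7 oligodendrocyte markers 3 were called lower and 1 higher. The part of cell make-up in the regional values was not tested. Gstt2 was higher in hippocampus in 6 cohorts, lower in 9 and at 0 in both regions in 5, with a log2 ratio of -0.77 ± 1.21 (SE, p = 0.527), a sign opposite to that of its mean CPM (2.22 in hippocampus and 1.87 in frontal cortex). The log2 ratios of the other 7 genes were 0.82 for Gstt1, 0.061 for Gstp1, -0.23 for Mgst3, -0.28 for Gsta4, -0.29 for Gsto1, -0.47 for Gstm7 and -1.49 for Gstt3, with p from 0.205 to 0.964; for Gsto1 and Gstt3 too the mean CPM was higher in hippocampus.

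Whether a cohort with a high level of a gene in hippocampus also had a high level in frontal cortex was tested over the cohorts. Of the 10 genes, 5 averaged at least 20 counts in both regions and were correlated over 20 cohorts after the mean of each diet condition was removed, and none of the 5 reached p under 0.05 by permutation, where 5.28% of 7671 genes did. Pearson's r was -0.06 for Gstm1, 0.05 for Gstm5, 0.08 for Gsta4, 0.06 for Gsto1 and 0.06 for Mgst3, with permutation p-values from 0.726 to 0.852 and adjusted p-values of 0.996 over these 7671 genes. The median r over the 7671 genes was 0.017. Spearman's rho ran from 0.0015 to 0.165 with permutation p-values from 0.496 to 0.998. Within pre-KD cohorts r ran from -0.31 to 0.22 and within post-KD cohorts from -0.29 to 0.31. Without the 2 cohorts farthest from the hippocampal median r ran from 0.15 to 0.41, the last for Gsta4 with a permutation p of 0.0609.

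**Figure D5:**
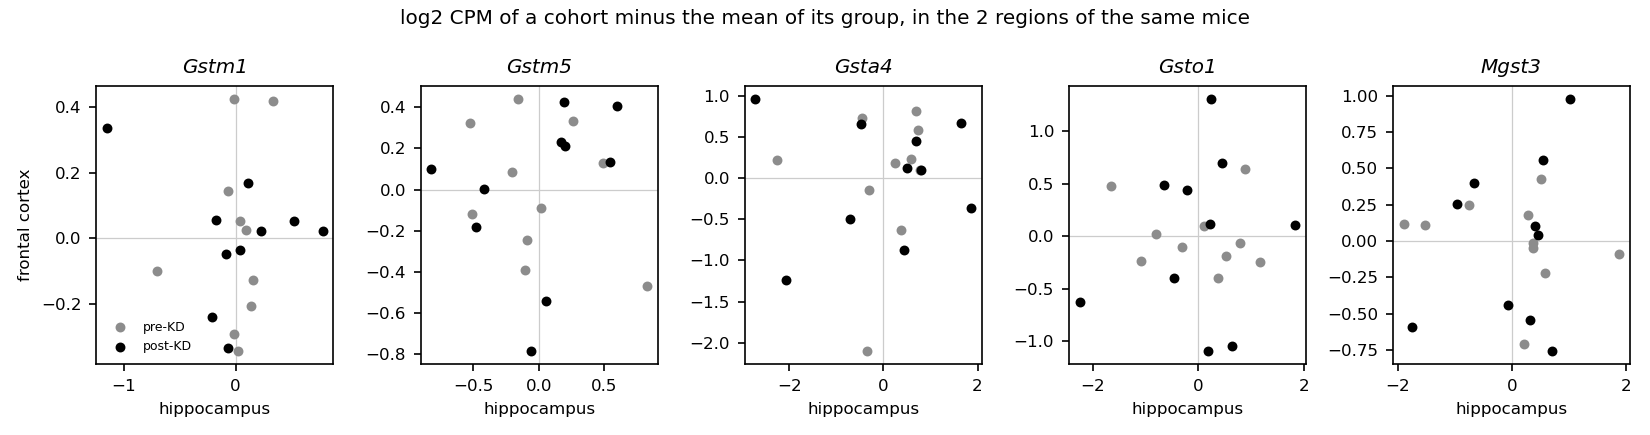
Log2 CPM of each of 20 cohorts minus the mean of its group, in hippocampus (horizontal axis) and frontal cortex (vertical axis), for the 5 genes averaging at least 20 counts (grey, pre-KD; black, post-KD). The points scatter over all quadrants, with Pearson's r between -0.06 and 0.08.

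Across the 40 libraries the same 5 genes were also set against each other. With group means removed, their 10 pairwise correlations ran from -0.37 for Mgst3 with Gsto1 to 0.23 for Mgst3 with Gsta4, and that of Gstm1 with Gstm5 was -0.01, over libraries that share their depth and composition across genes. The 3 genes with the highest r to each member were then listed. Each is a maximum over many genes, for which no chance level was worked out, so the values are a description only. Among 8157 genes, the 3 with the highest Pearson's r to Gstm1 over 40 libraries were Ngrn (0.66), Enho (0.66) and Axin1 (0.66). For Gstm5 they were Cdip1 (0.63), Znhit6 (0.59) and Sox5 (0.58), and for Gsto1 they were Spata7 (0.65), Ano8 (0.63) and Tbcel (0.61). For Gsta4 they were Ttc4 (0.68), Cant1 (0.66) and ENSMUSG00000094114 (0.65), and for Mgst3 they were Gmppa (0.68), Tceal8 (0.66) and Map1b (0.65).

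The other genes of the family were below the 6 highest members per kb of exon, though not below the sparse ones. In CPM without division by length Gstz1, at 21.7 in hippocampus and 19.1 in frontal cortex, stood above Gstm7 in both regions and above Mgst3 in hippocampus. Of 20 other glutathione S-transferase and related membrane-protein genes with a row, 15 were tested in hippocampus and 13 in frontal cortex, and Gstp3 and Gstt4 had no count in any library. Per kb of exon the highest were Gstk1, a mitochondrial and peroxisomal enzyme (3.70 and 6.01 CPM per kb in hippocampus and frontal cortex), Gstz1, which acts in tyrosine breakdown (4.27 and 3.75), Gstm4 (3.34 and 3.22) and Ltc4s, the leukotriene synthase (4.55 and 1.08). In hippocampus none of 15 was called by edgeR at an unadjusted p under 0.05, with a median log2 fold change of 0.03. In frontal cortex, where 9.68% of all genes were called, 1 of 13 was: Mgst1, a microsomal enzyme, with 21 counts in pre-KD and 109 in post-KD libraries, ranging up to 5.03 and 22.1 CPM with medians of 1.05 and 3.41. Its log2 fold change was 2.11 ± 1.03 (SE, p = 0.0429, adjusted p = 0.477 by edgeR), higher for 8 of 10 donors, and p was 0.102 under the replicate block and over 0.05 when replicate 1, 2, 3, 4 or 8 was left out (up to 0.175). Between the regions, where 10.9% of all genes were called, Ltc4s alone of 16 was called, higher in hippocampus by 2.36 ± 1.17 on the log2 scale (SE, p = 0.0444), but not by DESeq2 (p = 0.106) or without replicate 2, 3, 4, 5, 7 or 10 (p up to 0.0897), and 11.4% of its 69-base windows occur in another gene.

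Genes of glutathione supply and of the handling of conjugates formed a list of 24, all tested. Among the more abundant per kb in hippocampus and frontal cortex were the aminopeptidase Lap3 (10.7 and 9.88 CPM per kb), the efflux pump Abcc5 (7.92 and 8.98) and Gclc (7.42 and 7.74), the catalytic subunit of the enzyme that makes the first bond of glutathione. In post-KD hippocampus 2 of 24 were called lower and none higher by edgeR at an unadjusted p under 0.05, near the 10.1% of all genes called in either direction, with 16 of 24 fold changes below 0 and a median of -0.14. Chac1, which breaks down glutathione in the cytosol, had 65 counts in 7 of 10 pre-KD and 5 counts in 2 of 10 post-KD libraries. Its log2 fold change was -3.37 ± 1.49 (SE, p = 0.0257, adjusted p = 0.325 by edgeR), p was 0.0665 under the replicate block, and leaving out replicate 1 or 5 took p past 0.05 (up to 0.0779). Dpep2, a dipeptidase, had 12 counts in 2 pre-KD libraries and none in post-KD, so it met the minimum of 10 counts through those 2 libraries alone. With 3 counts taken as the floor of the whole post-KD group, the 12 counts stood 3.61-fold above it. That value takes the 12 counts as exact and leaves out the spread between libraries, so it is no lower bound. By edgeR p was 0.00411, by DESeq2 p was 0.401, and under the replicate block p was 0.266. In frontal cortex none of 24 was called by edgeR.

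Between regions 4 of these 24 genes were called at an unadjusted p under 0.05, beside 10.9% of all genes. Markers of several cell types also differ between the regions, as given above, and their part in these calls was not tested. Slc7a11, the cystine carrier that feeds glutathione synthesis, was higher in hippocampus by 0.82 ± 0.37 on the log2 scale (SE, p = 0.0288), at 30.1 ± 16.2 against 17.8 ± 11.999 CPM (SD, n = 20) and in 15 of 20 cohorts. Chac1 (-2.65, p = 0.0132) and the aminoacylases Acy1 (-1.79, p = 0.0238) and Acy3 (-2.71, p = 0.0307) were lower in hippocampus. Leaving out 1 replicate ended the call of Slc7a11 for replicates 2, 4, 5 and 7 (p up to 0.084), of Acy1 for 1, 4, 6 and 10 (up to 0.0931) and of Acy3 for 1, 2, 3, 7 and 10 (up to 0.0872), and ended that of Chac1 in none of 10 omissions. None passed adjustment by edgeR, with adjusted p-values from 0.238 to 0.374, whereas DESeq2 gave adjusted p-values of 0.0359 for Slc7a11, 0.022 for Chac1, 0.0305 for Acy1 and 0.205 for Acy3.

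Of 10 regulators, 9 were tested in each region and none was called between post-KD and pre-KD in either region by edgeR at an unadjusted p under 0.05. Keap1, the repressor of Nrf2, stood at 22.4 and 24.03 CPM per kb in hippocampus and frontal cortex, Mafg, a partner of Nrf2, at 14.7 and 11.03, Nfe2l2, which encodes Nrf2, at 5.56 and 7.59, and Arnt, the partner of the aryl hydrocarbon receptor, at 2.27 and 1.75. Between regions Mafg was higher in hippocampus by 0.43 ± 0.19 on the log2 scale (SE, p = 0.0212), and Bach1, a repressor that competes with Nrf2, was lower by 1.45 ± 0.73 (SE, p = 0.0472). Leaving out replicate 7 or 9 ended the Mafg call (p up to 0.0665), and leaving out replicate 1, 4, 5, 6, 7 or 8 the Bach1 call (up to 0.103). Neither passed adjustment by edgeR (0.317 and 0.447) or DESeq2 (0.0876 and 0.0674).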

How the data were processed

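Brain RNA of 40 pooled libraries was sequenced by the authors (paired reads of 69 bases), aligned to mm10 with STAR 2.5.2a and counted with HTSeq 0.6.0, per the study's methods. The deposited tables hold the authors' raw counts per Ensembl gene, whole numbers without unassigned rows. The annotation release and counting mode are not given in the sources used here, and the library kit is named as TruSeq in one place and as a 3′ kit in another, so levels per kb are uncertain.

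Symbols, positions and exon lengths came from GENCODE M21 (GRCm38; 47224 of 47643 ids matched). Counts were tested with edgeR 4.0.16 in R 4.3.3 (TMM scaling, quasi-likelihood test, two-sided, a minimum of 10 counts in all, Benjamini-Hochberg over all genes), each region alone for post-KD against pre-KD, and all 40 libraries with the cohort as a block for regions and for the difference in change. The SE is the size of the log2 fold change over the square root of F, and 95% intervals are 1.96 SE each way. DESeq2 1.42.0 was an alternative. Correlations used 100000 resamples of log2 CPM, where 2 was the prior count. The fits were tested on simulated data.

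The 10 members and the lists were chosen with earlier results of these data known. By rule, all 10 members are named in each comparison, with list genes at an unadjusted p under 0.05 (at most 6 a list) and, for levels, the 4 highest per kb of each list. Markers fall outside this rule: they are given as counts per list, and those named were chosen after their values were seen. The values of 2 list genes are not reported here. Same-numbered libraries share a stool donor; the deviations of a donor's pre-KD and post-KD libraries from their group means correlated between -0.03 and 0.03 in hippocampus and between -0.05 and 0.03 in frontal cortex. Nothing in the sources names repeated cohorts per donor, so p-values measure spread between donors' cohorts. Alternatives were another test, the replicate block, filters, scaling, a Y-linked covariate and the omission of each donor.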

Additional observations from a re-analysis of the deposited data

Results flagged for a closer look

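Of 40 combinations of gene and group, 10 had a library far from the other 9 by Dixon's test at the 95% level, where chance gives about 1 in 20 for normally distributed values. These CPM are skewed, with many at 0, so that rate may not hold here. In hippocampus after pre-KD microbiota, Gstt1 reached 22.3 CPM in 1 library (next 8.32), Gstt2 20.7 CPM (next 9.23) and Mgst3 47.1 CPM (next 18.4), while the lowest library of Gstm1 stood at 130 CPM (next 203). In post-KD hippocampus Gsto1 reached 109 CPM (next 46.8), in the post-KD library of replicate 3. In pre-KD frontal cortex Gstt1 reached 10.5 CPM (next 4.72) and Gstt2 8.49 CPM (next 2.83). In post-KD frontal cortex Gstt1 reached 29.1 CPM (next 14.3), Gstt3 5.09 CPM (next 2.21) and Gstp1 8.09 CPM (next 4.16). Of the 10, 7 belong to the theta class or Gstp1, the 4 genes with the fewest counts.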

How the results depend on the processing

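Calls at an unadjusted p under 0.05 depended on the settings, and the cause was not tested. For post-KD against pre-KD in hippocampus, 2 of 10 members were called, against 3 by DESeq2, 1 under the replicate block, with no filter on low counts, with edgeR's filterByExpr or with Y-linked genes as a covariate, and 0 to 2 when a replicate was left out. Over all genes 1762 were called, against 569 by DESeq2, 348 under the replicate block, 2931 with no filter and 221 with filterByExpr. In frontal cortex 0 members were called, against 1 by DESeq2, and 1731 genes in all, against 756 by DESeq2, 548 under the replicate block, 3035 with no filter and 407 with filterByExpr. Between regions 0 members were called, against 2 by DESeq2, with no replicate block, with filterByExpr or with RLE scaling, 1 in pre-KD cohorts only, and 0 to 2 when a replicate was left out; the 2117 genes in all became 3475 with no replicate block, 1208 in pre-KD and 1401 in post-KD cohorts only. For the difference in change 0 members were called, against 1 by DESeq2, 2 with no replicate block and 0 to 1 when a replicate was left out, and 431 genes became 948 by DESeq2 and 1767 with no replicate block.

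Changes of sign were seen only for log2 fold changes past no threshold. In hippocampus they were Gsta4 (-0.067) and Gstt3 (-0.33) under the replicate block, Gstt1 with the Y-linked covariate (0.17), and, leaving out a replicate, Gstm1 (-0.12 to 0.10) and Gstt1 (-0.55 to 0.59). In frontal cortex they were Gsto1 under the replicate block (-0.13) and, leaving out a replicate, Gsto1 (-0.24 to 0.10) and Gstm5 (-0.15 to 0.025). Between regions they were Gsto1 in post-KD cohorts (0.36), Gstp1 (-0.38) and Gstt2 (1.43) in pre-KD cohorts, Gstt3 with no replicate block (0.11), and Gstp1 leaving out a replicate (-0.25 to 0.40). For the difference in change they were Gsta4 with no replicate block (0.0088), Gstt3 by DESeq2 (0.051), with RLE scaling (0.013) and with no replicate block (2.69), and, leaving out a replicate, Gstt3 (-0.67 to 0.90), Gstt1 (-2.58 to 0.29), Gstm5 (-0.28 to 0.041) and Mgst3 (-0.089 to 0.45). The theta genes and Gstp1 had means of 3.175 to 7.425 counts per library. The replicate block changed no other call of a member than those given above and beside the results.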
